A study of Mus musculus with 2 samples.

Results

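Semaphorins are guidance signals that steer growing axons, endothelial cells and migrating neural crest cells. Plexins are their transmembrane receptors, whose intracellular domain switches off small GTPases of the Ras and Rap families. Neuropilins are co-receptors that bind most secreted semaphorins and also isoforms of the vascular growth factor VEGF. In the mouse heart the pathway is best known for septation of the outflow tract by neural crest cells, for patterning of vessels and for the entry of sympathetic nerves. The genes of these 3 families were taken by symbol from the deposited gene tables, as every entry named as a semaphorin of a numbered class, a plexin of class A to D or a neuropilin. The rule gave 31 of 55348 gene entries: 20 semaphorins, 9 plexins and 2 neuropilins, all of them protein-coding.

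The study measured RNA of mouse hearts at E13.5, by which time the mouse outflow tract has divided while nerves and coronary vessels are still growing into the heart. One library came from hearts homozygous for Lmna H222P, a missense allele of the lamin A/C gene that models laminopathy with cardiomyopathy, and 1 from wild-type hearts; both carry the strain label 129sv. The labels do not say how many hearts were pooled, or of which sex. Each genotype has 1 library, so no test of the genotypes exists, no difference below has a replicate check, and the 95% intervals cover counting error only.

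The H222P library held 25120790 reads on genes and the wild-type library 32669225. Heart muscle markers were abundant in each: 10 markers summed to 14478 CPM (counts scaled to effective library size) in the H222P library and 26854 CPM in the wild-type library. Lmna had 1865 reads in H222P and 2068 in wild type (log2 ratio 0.08, interval −0.01 to 0.17), and a missense allele need not change the amount of transcript, so this does not check the labels. Markers of other tissues differed widely between the libraries. The 12 hepatocyte markers summed to 5922 CPM in H222P and 32.9 CPM in wild type, and 8 markers of erythroid precursors to 1427 CPM in H222P and 220 CPM in wild type. Neuronal markers summed to 72.3 CPM in H222P and 29.4 CPM in wild type, and those of lung and foregut mesenchyme to 223 CPM in H222P and 129 CPM in wild type. Endothelial and endocardial markers summed to 727 CPM in H222P and 1120 CPM in wild type. Cushion mesenchyme and fibroblast markers summed to 1802 CPM in H222P and 3802 CPM in wild type, but the 8 markers were divided, with 3 at least 1.5-fold higher and 5 at least 1.5-fold lower. The summed levels of the smooth muscle, epicardium, Schwann cell, lung epithelium and macrophage lists had log2 ratios of −0.38, −0.28, 0.53, 0.35 and −0.25. The sums pool markers that differ in direction: 2 smooth muscle markers were past 1.5-fold on each side, as were 3 higher and 2 lower lung epithelium markers and 2 higher and 1 lower Schwann cell markers. Of the lung and foregut mesenchyme markers 5 were higher and 2 lower past that bound. Barx1 of that list alone had 46.6 CPM in H222P and 0.258 CPM in wild type. Sox10, of the Schwann cell list, had 224 reads in H222P and 25 in wild type, and Foxd3 of that list 69 in H222P and 5 in wild type. Msln, of the epicardium list, had 77 reads in H222P and 638 in wild type, and Sftpc, of the lung epithelium list, 1 in H222P and 211 in wild type. Sox10, Foxd3, Msln and Sftpc were named after their values were seen. No marker of the 12 lists had 0 reads in either library. In bulk tissue, fewer cells of a type and less RNA per cell cannot be told apart, and the part of other tissues in the values below was not tested.

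**Figure D1:**
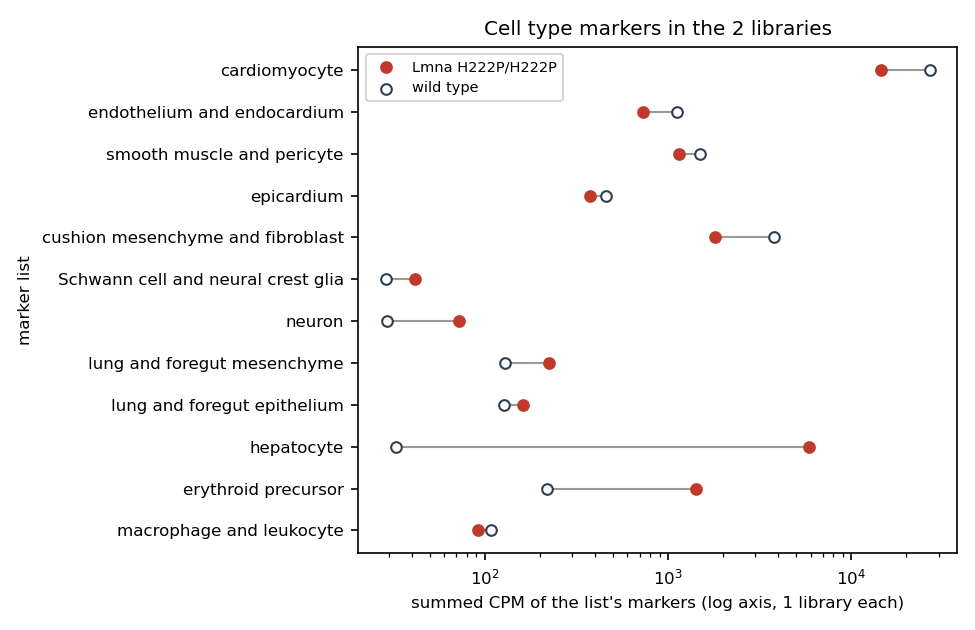
Summed CPM of 12 cell type marker lists (log axis), 1 point per library, red for Lmna H222P/H222P and open for wild type. The hepatocyte list lies at 5922 CPM in H222P and 32.9 CPM in wild type, the widest gap among the 12 lists, and the cardiomyocyte list at 14478 CPM in H222P and 26854 CPM in wild type.

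Of the 31 genes, 30 had a mean of at least 1 CPM over the 2 libraries and are called measured. Plxnb3, a receptor for Sema5a, had 14 reads in H222P and 20 in wild type and was below that bound. The 31 genes together took 41232 reads in H222P and 53557 in wild type, which was 0.164% of reads on genes in each library. A gene was called higher or lower when its scaled ratio, H222P over wild type, reached 1.5-fold. By this rule 3 of 30 were higher (Sema4a, Sema4g and Nrp2) and 4 were lower (Sema3b, Sema3e, Sema7a and Plxna4), which left 23 between. Among all 14716 measured genes 10.9% were higher and 11.4% lower, so 3 and 4 of 30 lie near the background and are no result about these genes as a set. With libraries scaled by total reads, 5 were higher and 3 lower, where 15.2% of all measured genes were higher and 7.74% lower. At 2-fold the counts were 2 higher and 1 lower, against backgrounds of 5.95% and 4.35%. The median log2 ratio of the 30 genes was −0.21, and that of all measured genes −0.01. Scaling by total reads moved these medians up together, to −0.058 and 0.15.

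**Figure D2:**
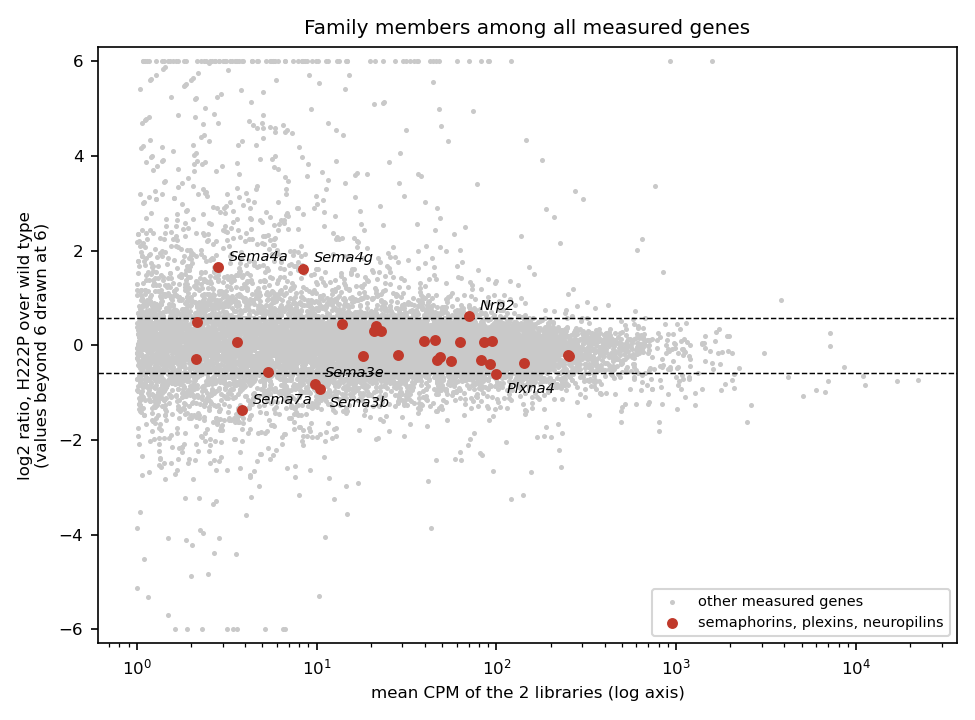
Log2 ratio, H222P over wild type, against mean CPM (log axis) for each measured gene, with the 30 measured family genes in red and dashed lines at 1.5-fold. Sema4a (1.66) and Sema4g (1.62) stand highest and Sema7a (−1.37) lowest of the 30, and no point has a replicate.

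The larger ratios belonged mostly to genes with few reads. In the 10 least abundant measured genes, at a mean of 2.14 to 13.8 CPM, 2 were higher and 3 lower and the median size of the log2 ratio was 0.69. In the 10 most abundant, from 63.0 to 255 CPM, 1 was higher and 1 lower and that median was 0.27. The share of all measured genes past 1.5-fold in these ranges of abundance was not counted, so these counts have no background beside them. The counting interval excluded 0 for 24 of the 30 genes, lying wholly below 0 for 15 and wholly above it for 9. These intervals leave variation between hearts out of account. The same count over all measured genes was not made, so these numbers are no result about the family. They also depend on the scaling, since scaling by total reads raises every ratio.

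**Figure D3:**
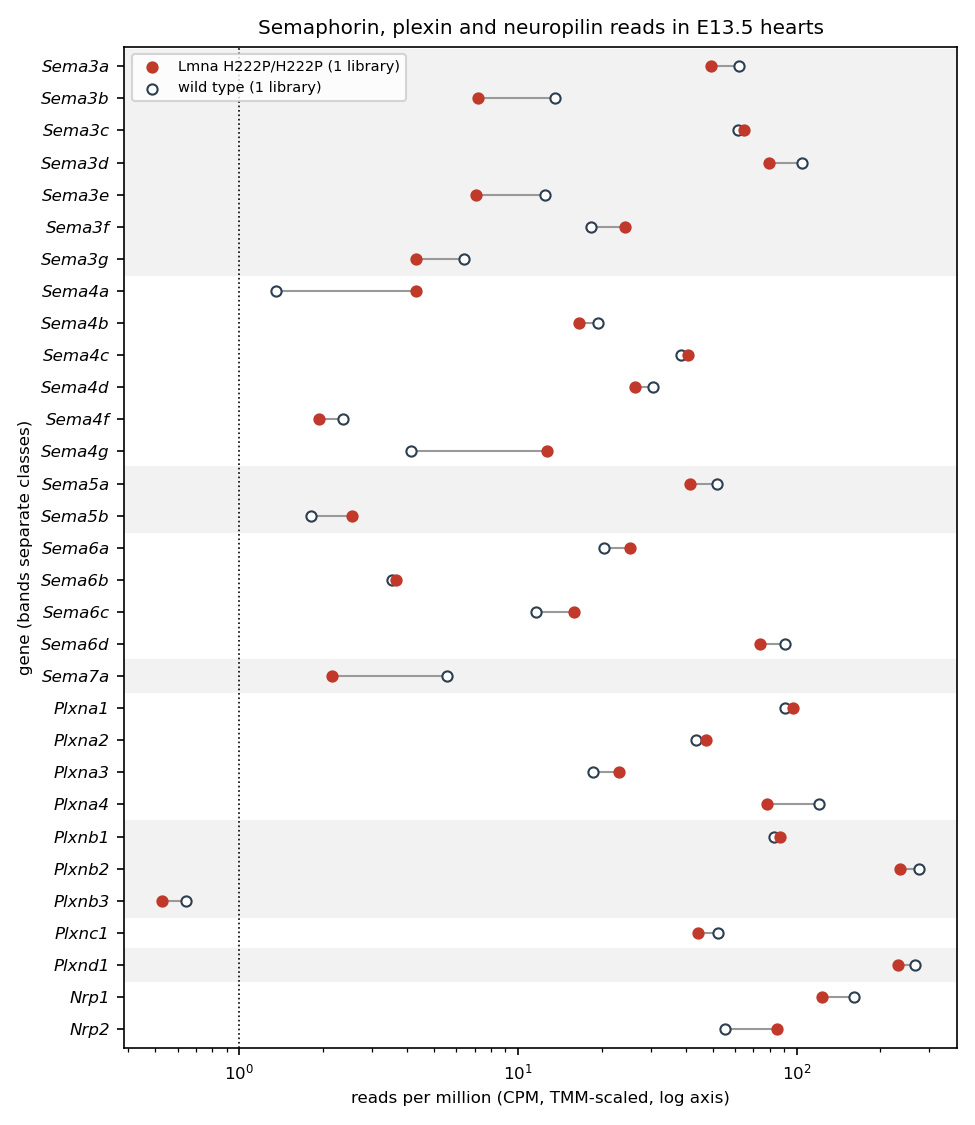
CPM of each gene (log axis) in the H222P library (red) and the wild-type library (open), 1 point per library, with bands by class and a dotted line at 1 CPM. Plxnd1 and Plxnb2 lie above 230 CPM in both libraries, and Plxnb3 lies below 1 CPM in both.

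Promoter sequence is shown for the genes at least 1.5-fold apart that had a RefSeq promoter entry (GRCm38.p6) lying wholly before the gene in the GENCODE annotation, which 3 of the 7 met. Each is the 250 bases before the RefSeq start, on the gene's strand, with matches to GGGCGG or its reverse complement CCGCCC, the core of the GC box bound by Sp1-type factors, in capitals. Sema3e lies at chr5:14025026-14025275 on the plus strand, Sema4a at chr3:88461183-88461432 on the minus strand (the outermost of 4 RefSeq starts) and Sema7a at chr9:57939862-57940111 on the plus strand.
Sema3e: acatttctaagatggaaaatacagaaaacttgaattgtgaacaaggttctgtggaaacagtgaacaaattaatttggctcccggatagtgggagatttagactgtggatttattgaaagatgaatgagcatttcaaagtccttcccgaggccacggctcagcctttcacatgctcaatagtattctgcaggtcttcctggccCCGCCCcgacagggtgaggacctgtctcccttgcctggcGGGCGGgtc
Sema4a: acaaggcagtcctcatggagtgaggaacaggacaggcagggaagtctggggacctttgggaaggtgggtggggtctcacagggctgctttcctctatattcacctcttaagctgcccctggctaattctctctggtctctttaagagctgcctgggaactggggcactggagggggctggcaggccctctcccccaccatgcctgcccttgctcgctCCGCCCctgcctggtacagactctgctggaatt
Sema7a: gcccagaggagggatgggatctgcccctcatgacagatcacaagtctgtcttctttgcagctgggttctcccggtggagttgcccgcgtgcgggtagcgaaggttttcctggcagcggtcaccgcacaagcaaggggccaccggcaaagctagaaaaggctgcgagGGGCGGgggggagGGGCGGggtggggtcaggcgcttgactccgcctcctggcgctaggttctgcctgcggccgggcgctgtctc

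The 3 windows differed in base make-up, with 2 CpG dinucleotides in that of Sema4a, 7 in that of Sema3e and 17 in that of Sema7a. Of the 5 genes past 1.5-fold with an entry, the higher genes Sema4a, Sema4g and Nrp2 had 1, 3 and 5 GC-box matches and the lower genes Sema3e and Sema7a had 2 each. Over the 26 family genes with an entry, 20 windows (76.9%) held GGGCGG on either strand, against 32.7% of 32851 windows of the same length in the RefSeq table. CCAAT, the motif of NF-Y, was found in 4 of 26 windows (15.4%), against 33.8% of all. TATAAA was found in 0 of 26, against 12.4% of all. The family windows had a median GC content of 64.6%, against 52.4% for all windows. These matches describe letters in a window and are not evidence of binding. The 2 sets of windows are unlike, since the family has only the outermost start of each gene and the background every RefSeq start. Some family windows, such as those of Sema3a and Sema4g, lie partly or wholly inside the GENCODE gene. The bases after the start occurred in an annotated transcript for 22 of 26 genes.

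The class 3 semaphorins are the secreted ligands, and most need a neuropilin to signal through a class A plexin. All 7 were measured. Sema3b and Sema3e were lower, none was higher, and the median log2 ratio of the 7 was −0.39. Sema3d, which guides coronary and pulmonary venous endothelium through Nrp1, was the most abundant in reads, with 2106 reads (79.5 CPM) in H222P and 3230 reads (104 CPM) in wild type. Its log2 ratio was −0.39 (−0.47 to −0.31), short of 1.5-fold. Sema3c, the ligand whose loss in mice leaves the outflow tract undivided, had 1710 reads (64.6 CPM) in H222P and 1906 reads (61.5 CPM) in wild type. Its log2 ratio of 0.07 had an interval that holds 0 (−0.03 to 0.16). Sema3a, the repellent that patterns sympathetic nerves in the heart wall, had 1303 reads (49.2 CPM) in H222P and 1918 reads (61.9 CPM) in wild type, a log2 ratio of −0.33 (−0.43 to −0.23).

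Sema3e is unusual in its class because it binds Plxnd1 without a neuropilin and repels endothelial cells. It had 188 reads (7.10 CPM) in H222P and 386 reads (12.5 CPM) in wild type, 1.75-fold lower (1.47 to 2.10). Sema3b had 190 reads (7.17 CPM) in H222P and 421 reads (13.6 CPM) in wild type, 1.89-fold lower (1.59 to 2.26). Of these, Sema3b was the larger difference and its interval lay wholly beyond 1.5-fold, while that of Sema3e did not. Sema3f, a ligand of Nrp2 that repels axons and endothelial cells, stood on the other side with 644 reads (24.3 CPM) in H222P and 566 reads (18.3 CPM) in wild type, a log2 ratio of 0.41 (0.25 to 0.58). Sema3g, made by arterial endothelium, had 114 reads (4.30 CPM) in H222P and 199 (6.42 CPM) in wild type. Its log2 ratio of −0.57 (−0.92 to −0.24) missed 1.5-fold, and passed it with DESeq2 size factors. In the same libraries 6 of 10 endothelial markers were past the bound on the lower side and 0 on the other, and their summed log2 ratio was −0.62.

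Sema3b and Sema3f lie within 0.113 Mb of chromosome 9 (mm10, 107597674 to 107609229 and 107681500 to 107710475). They do not adjoin, as other genes, among them Gnai2, lie between them. They differed in direction, at log2 ratios of −0.92 and 0.41. On chromosome 5, Sema3d, Sema3a, Sema3e and Sema3c lie within 5.35 Mb, and their ratios ran from −0.81 (Sema3e) to 0.07 (Sema3c).

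The make-up of the class does not depend on how the libraries are scaled. Sema3c held 27.3% of class 3 reads in H222P (exact binomial interval 26.2 to 28.5) and 22.1% in wild type (21.2 to 23.0). Sema3f held 10.3% in H222P (9.55 to 11.1) and 6.56% in wild type (6.05 to 7.11). Sema3d held the most reads in each library, 33.7% in H222P (32.5 to 34.9) and 37.4% in wild type (36.4 to 38.5). Sema3b held 3.04% in H222P and 4.88% in wild type, and Sema3e 3.01% in H222P and 4.47% in wild type, again with intervals that do not meet. Sema3a, at 20.8% in H222P and 22.2% in wild type, and Sema3g, at 1.82% in H222P and 2.31% in wild type, had intervals that overlap. Sema3c, Sema3f, Sema3d, Sema3b and Sema3e thus had shares whose intervals, for counting error only, did not meet. How often such intervals do not meet for other genes was not counted, so this is no result about the class. Shares are tied to one another: that of Sema3c differed though its own log2 ratio of 0.07 had an interval that holds 0. Overlap does not show that the shares of Sema3a and Sema3g were equal, and their difference was not tested.

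**Figure D4:**
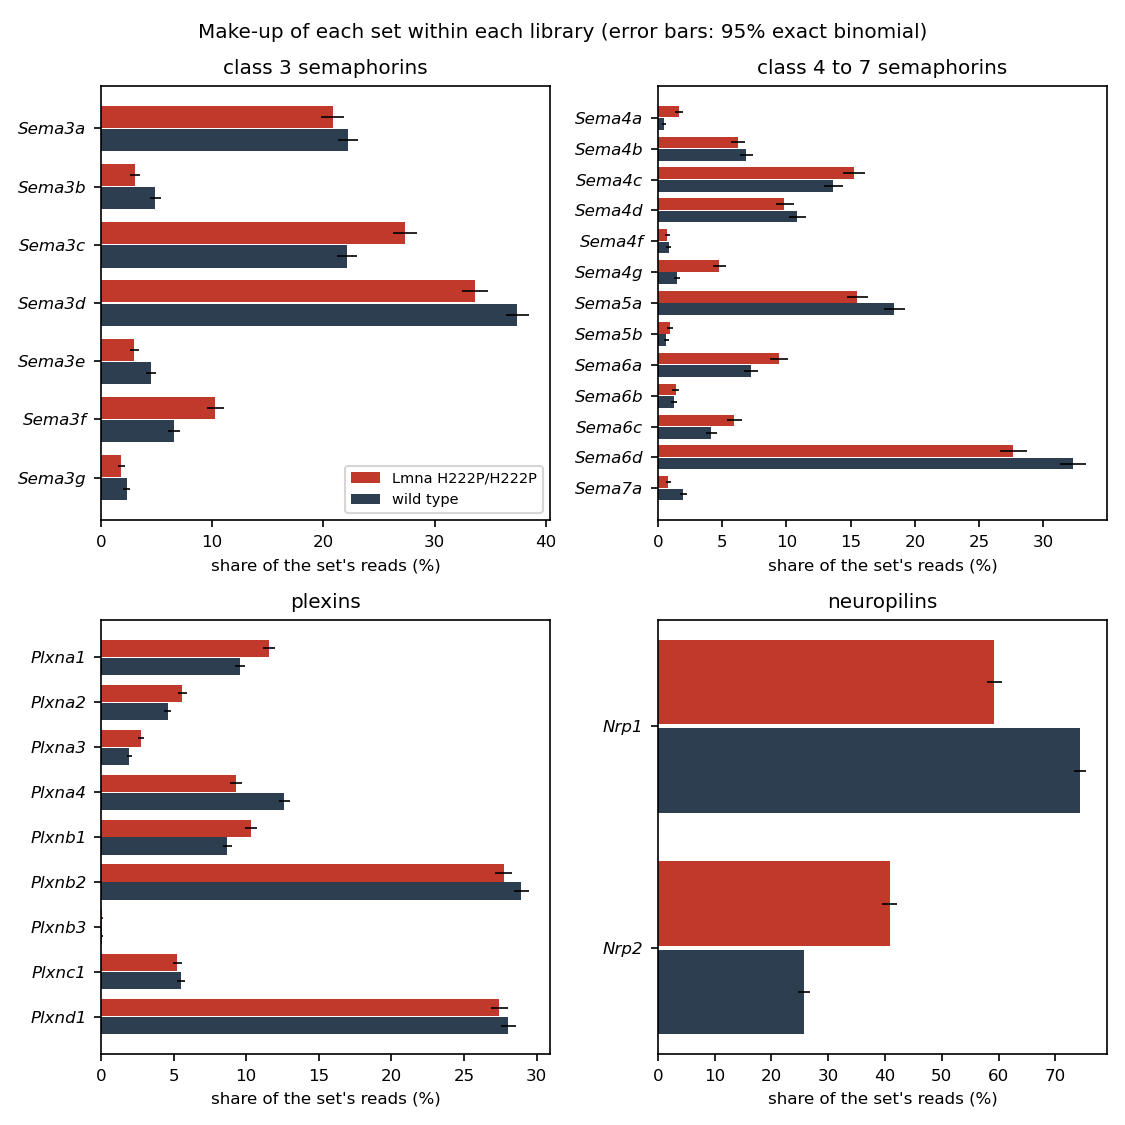
Share of each set's reads held by each gene, in percent, in the H222P library (red, upper bar) and the wild-type library (dark, lower bar), with 95% exact binomial intervals for counting error. Nrp2 holds 40.8% of neuropilin reads in H222P and 25.7% in wild type, and Plxnb2 and Plxnd1 each hold between 27.4% and 28.9% of plexin reads.

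The class 4 semaphorins are transmembrane ligands, most of which signal through class B plexins. Sema4a and Sema4g were higher and the other 4 lay within 1.5-fold. Sema4a, known for its action on T cells and in the retina, had 114 reads (4.30 CPM) in H222P and 42 reads (1.36 CPM) in wild type. It was 3.15-fold higher (2.21 to 4.64), from low counts. Sema4a lies next to Lmna on chromosome 3 (mm10, Sema4a 88435959 to 88461182, Lmna 88480147 to 88509956). The gap is 19.0 kb and holds no other protein-coding gene. Slc25a44, a mitochondrial carrier gene 10.8 kb from Sema4a on its other side, had a log2 ratio of 0.13 (−0.03 to 0.28), and Lmna one of 0.08, both far below the 1.66 of Sema4a. Macrophage and leukocyte markers, a class of cells in which Sema4a is known, summed to 91.4 CPM in H222P and 109 CPM in wild type, with 7 of 8 within 1.5-fold and 1 above it. Their part in the value of Sema4a was not tested.

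Sema4g, which binds Plxnb2 together with Sema4c in the mouse cerebellum, had 336 reads (12.7 CPM) in H222P and 128 reads (4.13 CPM) in wild type. It was 3.06-fold higher (2.50 to 3.79), and its whole interval lay beyond 2-fold, as did that of Sema4a. Its neighbours on chromosome 19, Slf2 and Mrpl43, had log2 ratios of 0.01 (−0.06 to 0.08) and −0.18 (−0.32 to −0.04). All 12 hepatocyte markers and 7 of 8 erythroid markers were at least 1.5-fold higher in the same library, and their part in the values of Sema4a and Sema4g was not tested. Sema4c, the most abundant of the class in reads, had 1078 reads (40.7 CPM) in H222P and 1192 reads (38.5 CPM) in wild type, a log2 ratio of 0.08 (−0.04 to 0.20). Sema4d, the ligand of Plxnb1 that acts on vessels and bone cells, had 697 reads (26.3 CPM) in H222P and 948 reads (30.6 CPM) in wild type, a log2 ratio of −0.22 (−0.36 to −0.07). Sema4b had 439 reads in H222P and 602 in wild type (−0.23, −0.41 to −0.05), and Sema4f only 51 in H222P and 73 in wild type (−0.29, −0.84 to 0.24).

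**Figure D5:**
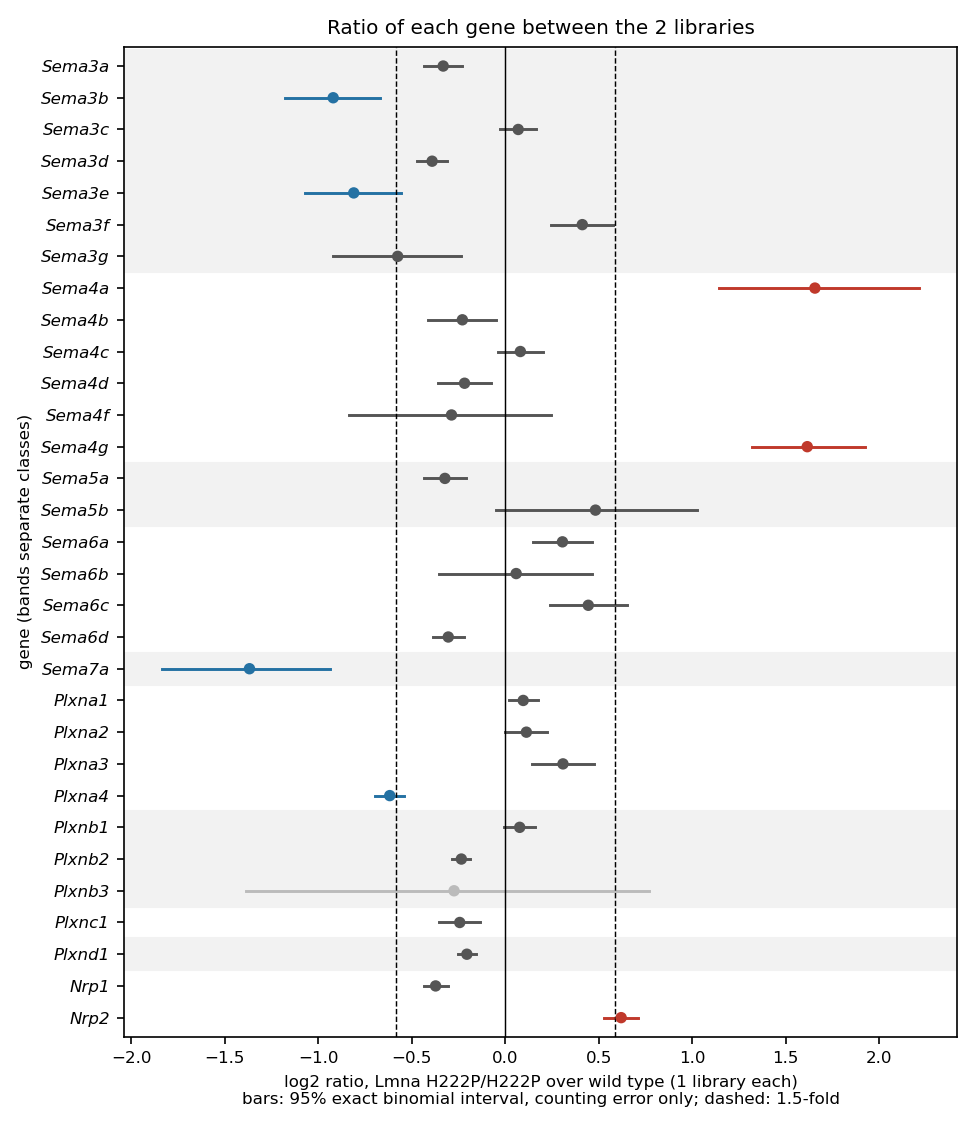
Log2 ratio, H222P over wild type, of each of the 31 genes, with bars for the 95% exact binomial interval (counting error only) and dashed lines at 1.5-fold. Red marks the 3 higher genes, blue the 4 lower genes, and the pale point is Plxnb3, below 1 CPM.

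The class 5 ligands carry thrombospondin repeats outside the cell. Sema5a had 1098 reads (41.5 CPM) in H222P and 1606 reads (51.8 CPM) in wild type, a log2 ratio of −0.32 (−0.43 to −0.21). Sema5b, known in mice for confining neurites in the retina, had 67 reads in H222P and 56 in wild type, a log2 ratio of 0.48 (−0.05 to 1.02) whose interval holds both 0 and 1.5-fold. In class 6, transmembrane ligands of class A plexins, none of 4 reached 1.5-fold. Sema6d, which acts with Plxna1 in looping and trabeculation of the chick heart, had 1955 reads (73.8 CPM) in H222P and 2824 reads (91.1 CPM) in wild type, a log2 ratio of −0.30 (−0.39 to −0.22). Sema6a and Sema6c leaned the other way, at 0.31 (0.15 to 0.47) and 0.44 (0.24 to 0.65). Sema6c had 420 reads in H222P and 361 in wild type, and passed 1.5-fold when libraries were scaled by total reads. Sema6b, with 97 reads in H222P and 109 in wild type, had a ratio of 0.06 (−0.35 to 0.47).

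Sema7a, the one semaphorin held to the membrane by a lipid anchor, signals through Plxnc1 and through beta-1 integrins and in humans carries a blood group antigen of red cells. It had 57 reads (2.15 CPM) in H222P and 173 reads (5.58 CPM) in wild type. It was 2.58-fold lower (1.91 to 3.56), the lowest ratio among the 30 genes. Markers of erythroid precursors summed to 1427 CPM in H222P and 220 CPM in wild type, and their part in the value of Sema7a was not tested. Itgb1, the beta-1 integrin gene, was 1.51-fold lower (1.48 to 1.53), just past the bound, and lay within it when libraries were scaled by total reads. In the make-up of classes 4 to 7, Sema7a held 0.806% of reads in H222P (0.611 to 1.04) and 1.98% in wild type (1.70 to 2.29). Sema4a held 1.61% in H222P and 0.480% in wild type, and Sema4g 4.75% in H222P and 1.46% in wild type. Sema6d held the most reads in each library, 27.6% in H222P (26.6 to 28.7) and 32.3% in wild type (31.3 to 33.3). Per kb of annotated exon, Sema4c stood above Sema6d in H222P, at 25.7% against 20.2% of the summed level, and in wild type they were close, Sema4c at 23.6% and Sema6d at 24.3%.

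Among the plexins, 7 of the 8 measured genes lay within 1.5-fold. Plxnd1, the endothelial receptor needed for outflow tract septation, had 6136 reads (232 CPM) in H222P and 8273 reads (267 CPM) in wild type, a log2 ratio of −0.20 (−0.25 to −0.16). Plxnb2, a widely expressed receptor of class 4 ligands, had 6203 reads (234 CPM) in H222P and 8536 reads (275 CPM) in wild type, a ratio of −0.23 (−0.28 to −0.19). Both differences were small beside that of the endothelial markers (summed log2 ratio −0.62) and of the cardiomyocyte markers (−0.89). Plxnd1 took 27.4% of plexin reads in H222P (26.9 to 28.0) and 28.0% in wild type (27.5 to 28.6), with intervals that overlap. Plxnb2 took 27.7% in H222P (27.2 to 28.3) and 28.9% in wild type (28.4 to 29.5), with intervals that just miss each other.

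Class A plexins divided. Plxna4, which with Nrp1 carries the Sema3a signal in sympathetic neurons, had 2077 reads (78.4 CPM) in H222P and 3727 reads (120 CPM) in wild type. It was 1.53-fold lower (1.45 to 1.62), just past the bound, and was not past it when libraries were scaled by total reads. Its share of plexin reads was 9.29% in H222P (8.91 to 9.68) and 12.6% in wild type (12.3 to 13.0). Of 8 measured neuronal markers 5 were at least 1.5-fold higher in H222P and 0 lower. Their part in the value of Plxna4 was not tested. Plxna1, a receptor of Sema6d, had 2582 reads (97.5 CPM) in H222P and 2825 reads (91.2 CPM) in wild type, a log2 ratio of 0.10 (0.02 to 0.17). Plxna2, which marks cardiac neural crest cells in the mouse, had 1253 reads (47.3 CPM) in H222P and 1355 reads (43.7 CPM) in wild type, a log2 ratio of 0.11 (0.0014 to 0.23). Plxna3, an X-linked receptor for Sema3f, had 609 reads (23.0 CPM) in H222P and 575 reads (18.6 CPM) in wild type, a ratio of 0.31 (0.14 to 0.48).

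Plxnb1, the receptor of Sema4d, had 2313 reads (87.3 CPM) in H222P and 2564 reads (82.8 CPM) in wild type, and its ratio of 0.08 had an interval that reaches just below 0 (−0.0040 to 0.16). Plxnc1, the receptor of Sema7a, had 1173 reads (44.3 CPM) in H222P and 1624 reads (52.4 CPM) in wild type, a ratio of −0.24 (−0.35 to −0.13). Reads counted on the opposite strand of the 31 genes were few, 178 in H222P and 311 in wild type, or 0.430% of their reads on both strands in H222P and 0.577% in wild type. Plxna1 had 2030 reads in H222P and 2294 in wild type in the unstranded column, fewer than in the stranded one, and an antisense gene, Gm26811, is annotated across it. For the 2 genes with the highest ratios, opposite-strand reads were a larger percentage of both strands in wild type. Both genes had few stranded reads there (42 and 128). Why the percentage was larger was not tested. Sema4a had 1 opposite-strand read in H222P (0.870%) and 4 in wild type (8.70%), and Sema4g 5 in H222P (1.47%) and 10 in wild type (7.25%). The log2 ratios of these opposite-strand reads had intervals that hold 0 (−7.40 to 1.56 for Sema4a and −2.67 to 0.91 for Sema4g).

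The neuropilins parted. Nrp2, the co-receptor for Sema3f and for VEGF-C in veins, lymphatics and nerves, had 2260 reads (85.3 CPM) in H222P and 1720 reads (55.5 CPM) in wild type, 1.54-fold higher (1.44 to 1.64). Nrp1, the co-receptor for Sema3a and VEGF-A in arteries, endocardium and nerves, had 3281 reads (124 CPM) in H222P and 4967 reads (160 CPM) in wild type, 1.29-fold lower (1.24 to 1.35). Nrp2 held 40.8% of neuropilin reads in H222P (39.5 to 42.1) and 25.7% in wild type (24.7 to 26.8). There were 68.9 reads of Nrp2 for each 100 of Nrp1 in H222P and 34.6 in wild type, a log2 difference of 0.99 (0.88 to 1.10) that no scaling of the libraries can move. Nrp2 was just past 1.5-fold, and its interval reached below that bound. Among the higher genes it was the most abundant, at a mean of 70.4 CPM against 8.41 CPM for Sema4g and 2.83 CPM for Sema4a. Kdr, the VEGF-A receptor that pairs with Nrp1, had a log2 ratio of −0.43 (−0.50 to −0.35) and Vegfa one of 0.19 (0.10 to 0.28), both named after their values were seen.

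Ligands were set against the receptors they are known to bind, as reads of the ligand for each 100 reads of the receptor, in 11 pairs that include the neuropilins above, taken from textbook knowledge. Sema7a had 4.86 reads for each 100 of Plxnc1 in H222P and 10.7 in wild type, a log2 difference of −1.13 (−1.60 to −0.68). Sema3e had 3.06 for each 100 of Plxnd1 in H222P and 4.67 in wild type (−0.61, −0.87 to −0.35). The ratio of Sema6d to Plxna1 was 75.7 in H222P and 99.96 in wild type (−0.40, −0.52 to −0.29). Others held nearly level. Sema3a had 39.7 reads for each 100 of Nrp1 in H222P and 38.6 in wild type (0.04, −0.08 to 0.16), and Sema3c had 136.5 in H222P and 140.7 in wild type for each 100 of Plxna2 (−0.04, −0.19 to 0.10). These intervals still allow differences up to their bounds. The other 5 ligand and receptor pairs differed by −0.30 (Sema4d to Plxnb1), −0.21 (Sema3f to Nrp2), 0.19 (Sema6a to Plxna2), 0.27 (Sema3c to Plxnd1) and 0.32 (Sema4c to Plxnb2) on the log2 scale, and that of Sema6a had an interval holding 0 (−0.0025 to 0.39).

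Levels of different genes were compared per length, as CPM per kb of annotated exon. Plxnd1 stood first (31.7 in H222P and 36.6 in wild type), Plxnb2 next (30.3 in H222P and 35.7 in wild type) and Nrp1 after them (12.7 in H222P and 16.4 in wild type). Of the ligands, Sema3d (9.25 in H222P and 12.1 in wild type) and Sema3c (9.04 in H222P and 8.62 in wild type) stood first in H222P. With the length of the longest annotated transcript the same 3 receptors stayed in the first 3 places, but Nrp1 moved up to 34.0 in H222P and 44.0 in wild type, so the order among them is not fixed. Sema4a, at 0.796 in H222P and 0.251 in wild type, was among the 6 lowest genes in each library.

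Partners of the families were listed as other neuropilin ligands, co-receptors, processing proteases, plexin-bound regulators, cytoskeletal effectors and upstream transcription factors. Of 84 measured partners 10 were higher, 9 were lower and 65 lay between, with a median log2 ratio of −0.10. Against the 10.9% higher and 11.4% lower of all measured genes these counts lie near the background and are no result about the partners as a set. Itgb1 was the most abundant, at 1056 CPM in H222P and 1591 CPM in wild type. Among plexin-bound regulators (1 higher and 3 lower of 27), Rras and Rras2, Ras-type GTPases on which plexins act, were 1.70-fold (1.54 to 1.89) and 1.63-fold (1.56 to 1.71) lower. Scaled by total reads, Rras stayed past 1.5-fold, while Rras2, Itgb1, Itga1 and Dpysl3 lay within it. Sh3bp1, a GTPase-activating protein tied to plexin signals, was 1.63-fold higher (1.30 to 2.07).

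Cytoskeletal effectors were 5 higher and 2 lower of 25, beside the backgrounds of 10.9% higher and 11.4% lower, and with no test of the difference. Dpysl4 and Crmp1, collapsin response mediators of neurons, had log2 ratios of 2.43 (2.03 to 2.87) and 1.18 (0.97 to 1.39), with 274 and 557 reads in H222P against 59 and 287 in wild type. Dpysl3, of the same family and far more abundant, had −0.72 (−0.76 to −0.69). Dpysl2 and Dpysl5, also of that family, had −0.02 (−0.11 to 0.08) and 0.14 (−0.06 to 0.33), and were named after their values were seen. Cfl2, the muscle cofilin that severs actin filaments, had −0.92 (−0.96 to −0.87), Pak1 0.97 (0.78 to 1.16) and Micall2 1.42 (1.07 to 1.79). Among co-receptors (3 higher and 3 lower of 14), Ret, the receptor of GDNF in enteric and autonomic neurons, had 432 reads in H222P and 42 in wild type, a log2 ratio of 3.57 (3.13 to 4.08). Itga1 had −0.71 (−0.79 to −0.63). Of 7 measured transcription factors upstream of the pathway, Isl1, also a neuronal gene, was higher at 2.26 (2.00 to 2.53) and 6 lay between. Neuronal markers summed to 72.3 CPM in H222P and 29.4 CPM in wild type. Isl1 is itself among these markers and supplied 22.9 CPM of the sum in H222P and 4.78 CPM in wild type. The part of neuronal cells in the values of Ret, Dpysl4, Crmp1 and Isl1 was not tested.

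Slit, Robo, netrin, Unc5, ephrin and Eph genes, the other classic guidance families, gave 9 higher and 6 lower of 35 measured genes, with a median log2 ratio of 0.02, beside the same backgrounds of 10.9% higher and 11.4% lower. The difference between these counts and the 3 higher and 4 lower of 30 was not tested.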

How the data were processed

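RNA-seq counts were deposited for 2 libraries, grouped by the genotype label. The authors' deposited values are raw read counts per gene. STAR, HTSeq, DESeq and mm10 are named in the submitters' processing notes, with no roles or versions; the sources used here do not name the annotation release. Multiply mapped reads are not in the gene counts, so near-identical copies would be undercounted. The reverse-strand column was used (20.5 times the other strand's reads in H222P, 19.3 in wild type). The 4 summary entries, 18.0% of reads in H222P and 17.2% in wild type, were left out of library sizes. TMM factors came from edgeR 4.0.16 in R 4.3.3 (1.05 for H222P, 0.948 for wild type). Log2 ratios add 0.5 reads per library. Intervals are exact Clopper-Pearson binomial intervals at 95% (scipy 1.17.1); they cover counting error only, and since PCR copies cannot be told from molecules even that may be too narrow. edgeR's test needs replicates and was not run. At these depths 3 reads are 0.113 CPM in H222P and 0.0968 CPM in wild type; no family gene had 0 reads. Gene positions and exon lengths are from GENCODE M21 (GRCm38, the assembly of mm10). On simulated counts (14713 genes, counting error alone) 95.3% of intervals held the true ratio. Those counts were drawn with the error that the intervals assume, so this checks the computation and not the intervals in these data. In the simulated counts 200 of 200 changed genes passed 1.5-fold, but each had been set well beyond it. Calls near the bound were not checked in this way. The genes, lists, pairs and size rules were chosen with earlier results of these data known. Partners could be named at a mean of at least 5 CPM and 1.5-fold. Alternatives were DESeq2 1.42.0 size factors, total reads, scaling without blood, liver and mitochondrial-like entries, other filters, a prior of 5 reads, the unstranded column and thinning of the deeper library.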

Additional observations from a re-analysis of the deposited data

How the results depend on the processing

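No paired analysis was possible because each genotype has 1 library, and no library could be left out for the same reason. With scaling by total reads 5 family genes were higher (Sema5b and Sema6c joined), 3 were lower (Plxna4 left), the median log2 ratio was −0.058 and 12 partners were higher instead of 10 and 5 lower instead of 9; the median over all measured genes was then 0.15. Under DESeq2 size factors and under thinning 5 family genes were lower, as Sema3g joined. The other 5 alternatives changed no call among the family genes they kept; the filter at 5 CPM kept 25 of 30. Partner counts also moved with the filter, to 7 higher and 6 lower at 5 CPM and to 13 higher and 10 lower with none. No family gene changed sign under any of the 8 alternatives. Levels per length shifted beyond counting error for 51 of 62 values when the longest transcript set the length. Shares per kb did so for 53 of 62, and unstranded shares for 6 of 62. Depth limits Sema4a, Sema4f, Sema5b, Sema6b, Sema7a and Plxnb3, each under 5 CPM on average.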
